A study of Danio rerio with 8 samples.

Results

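The genes described here are 4 antioxidant genes of the zebrafish ovary, the thioredoxin gene txnb, the peroxiredoxin gene prdx1, the superoxide dismutase gene sod1 and the catalase gene cat. Their probe sets are those whose annotated symbol was one of the 4, and the genes make up 4 of 8793 genes named on the array. These genes, and the gene lists and markers used below, were chosen with earlier results of these data known. Their counts beside shares of all probe sets are therefore descriptions and not a test. txnb, sod1 and cat each have 1 probe set and prdx1 has 3, so 6 of 15502 probe sets belong to them. All 6 lay above the intensity filter and were among the 9301 probe sets tested.

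Adult female zebrafish of the AB strain, 6 to 8 months old, were fed trout chow for 15 days that held 0 ppb (acetone only), 10, 40 or 100 ppb of TCDD, a chlorinated dioxin and ligand of the aryl hydrocarbon receptor. Whole-ovary RNA of 5 females was mixed in equal parts into 1 pool per dose, 3 µg from each fish, and each of the 4 pools was hybridised to 2 arrays. The 8 arrays are therefore technical replicates of 4 pools, and the array fit's p-values reflect technical spread within pools and not the spread between fish. In RNA of a whole organ, fewer cells of a type and less RNA per cell cannot be told apart.

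Thioredoxins are small proteins whose pair of cysteines reduces disulfide bonds in other proteins, and thioredoxin reductase returns them to the reduced form at the cost of NADPH. Peroxiredoxins break down hydrogen peroxide with a reactive cysteine that thioredoxin recharges, superoxide dismutases convert superoxide to hydrogen peroxide, and catalase splits hydrogen peroxide into water and oxygen. In the ovary these enzymes act in oocytes and in the follicle cells around them, and in vertebrates many genes of the same network are under the transcription factor Nrf2, held in check by Keap1.

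Levels are log2(MAS5 signal + 16) after quantile normalisation, and each difference is an exposed pool minus the 0 ppb pool on this scale, with its standard error from limma's moderated fit of all 4 pools and p-values adjusted by Benjamini-Hochberg over all 9301 probe sets. A probe set passed the full rule at an adjusted p under 0.05 and a log2 difference of at least 1 in size, which is 2-fold. A looser rule, the adjusted p alone, is named wherever it is used. Median signal ran between 28.1 and 62.25 over the 8 arrays before normalisation. Log2 values of the paired arrays correlated at 0.981 in the 10 ppb pool and at 0.991 to 0.992 in the other pools. The 10 ppb arrays stood apart, with 190 probe sets that differed at least 2-fold between them, against 9 to 20 in the other pools. Markers of liver were also unequal on those arrays, with a summed signal of 19189 on replicate 1 and 5162 on replicate 2, against 970 and 1039 on the 0 ppb arrays. Differences of txnb, prdx1, sod1 and cat at 10 ppb from 0 ppb are given with and without each of its arrays. The cytochrome P450 gene cyp1a, a target of the aryl hydrocarbon receptor, was higher than at 0 ppb by 2.49 ± 0.32 at 10 ppb, 3.13 ± 0.32 at 40 ppb and 4.03 ± 0.32 at 100 ppb (log2, SE, n = 2 arrays each), with limma adjusted p of 0.00349, 0.00211 and 7.96e-05. The 10 ppb mean of cyp1a hides a wide gap, since replicate 1 read 8.60 while replicate 2 read only 7.27. Both readings exceeded those of the control arrays, 5.37 and 5.53. The part of liver in the cyp1a level at 10 ppb was not tested.

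At 100 ppb, txnb fell, prdx1 was higher and sod1 lower by smaller margins, and cat showed no difference past the test. Of the 4 genes, txnb alone passed the full rule, beside 1.25% of all tested probe sets (0.946% were lower and 0.301% higher). By adjusted p alone 3 of the 4 passed, prdx1 higher and txnb and sod1 lower, beside 5.17% of all tested probe sets (2.13% higher and 3.04% lower). At 10 ppb 0 of 4 passed the full rule of the limma fit, beside 1.11% of probe sets, and 2 of 4 had an unadjusted p under 0.05. At 40 ppb 0 of 4 passed as well, beside 0.344%, and again 2 of 4 had an unadjusted p under 0.05. For single doses the share of all tested probe sets with an unadjusted p under 0.05 was not counted. Counts at that level, here and below, are given without it and are not read as a result. The looser rule also gave 0 of 4 at both lower doses, beside 2.43% at 10 ppb and 0.613% at 40 ppb.

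**Figure D1:**
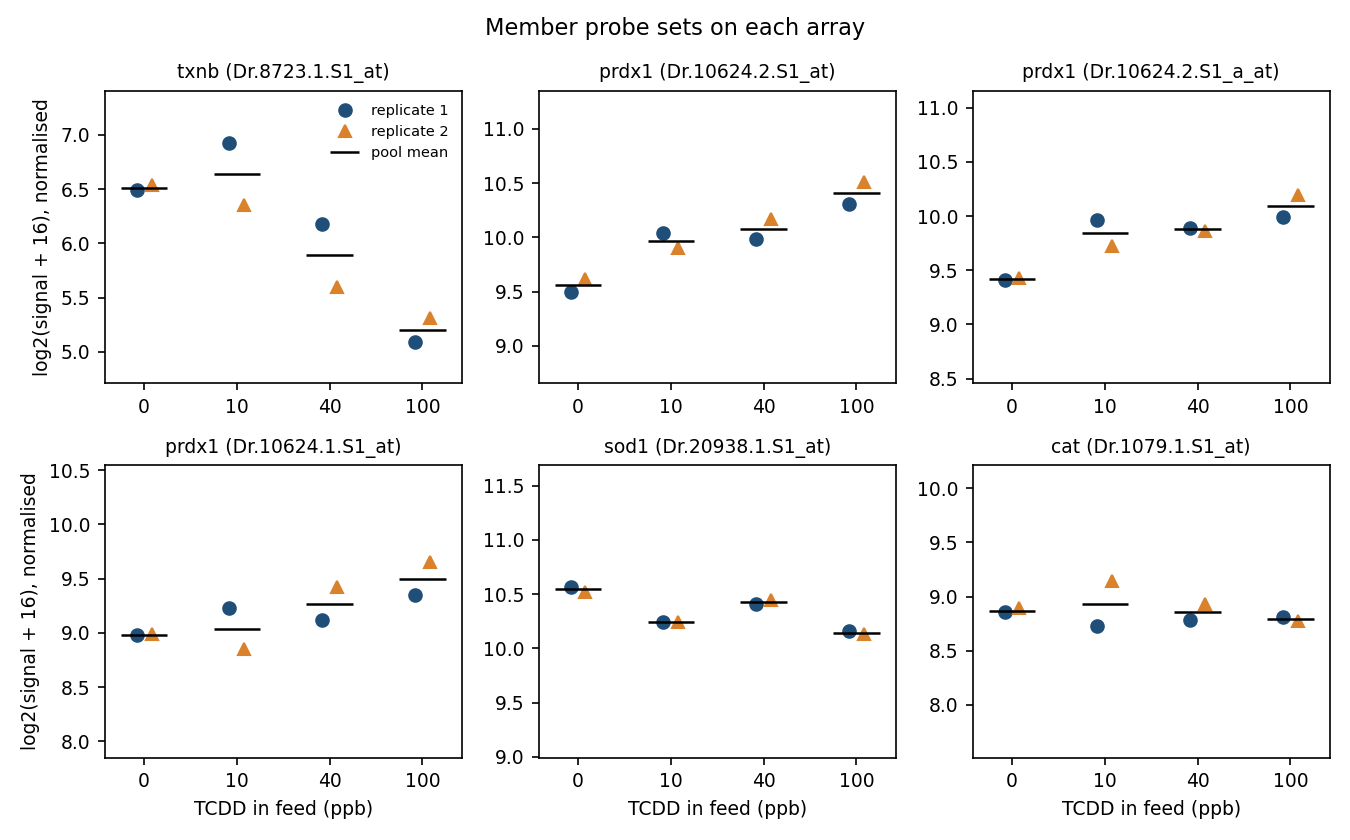
Normalised log2 level (vertical axis) of the 6 probe sets on each of the 8 arrays, with dietary TCDD in ppb on the horizontal axis. Points are arrays, and short horizontal lines are the pool means. txnb falls to 5.09 and 5.31 at 100 ppb, against 6.49 and 6.54 at 0 ppb, and cat stays between 8.73 and 9.14 on all arrays.

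txnb, probe set Dr.8723.1.S1_at (Entrez gene 436734), encodes a cytosolic thioredoxin. Its level was 6.49 and 6.54 in the 0 ppb pool, 6.93 and 6.35 in the 10 ppb pool, 6.18 and 5.6 in the 40 ppb pool, and 5.09 and 5.31 in the 100 ppb pool. Arrays that did not overlap the control arrays were common, in 58.4% of all tested probe sets at 100 ppb and 47.8% at 40 ppb. The order of the arrays alone therefore does not set txnb apart. For txnb both 100 ppb arrays lay below all 6 others, and both 40 ppb arrays lay below the control arrays. The 10 ppb arrays lay on either side of the control arrays. The deposited signals were 24.2 and 17.8 at 100 ppb, against 116.7 and 55.1 at 0 ppb, and the probe set was above the 95th percentile of the 17 tag controls, probe sets that match no zebrafish transcript, on all 8 arrays. Relative to 0 ppb, txnb fell by 1.32 ± 0.23 on the log2 scale at 100 ppb (95% interval -1.83 to -0.80, limma adjusted p = 0.0119), which is 2.49-fold lower. The difference was -0.62 ± 0.23 at 40 ppb (adjusted p = 0.326) and 0.12 ± 0.23 at 10 ppb (adjusted p = 0.849), neither past the test. Without replicate 1 of the 10 ppb pool the 10 ppb difference was -0.17, and without replicate 2 it was 0.42.

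The txnb difference was compared within the days on which the arrays were run, which the instrument files give. At 100 ppb it was -1.40 among the arrays of the second day and -1.23 among those of the third. At 40 ppb it was -0.31 on the second day and -0.94 on the third, and at 10 ppb the single within-day value, on the third day, was -0.19. With run day as a block, the 100 ppb difference was -1.32 ± 0.19 (limma adjusted p = 0.00173). The block could not change its size, since the 0 and 100 ppb pools each had 1 array on the second day and 1 on the third. The blocked difference at 10 ppb was -0.12, opposite in sign to the value without the block. The first day held only replicate 1 of the 10 ppb pool, so the blocked 10 ppb value rests on replicate 2 of that pool. The gap between the 10 ppb arrays is thereby left out of the blocked fit's spread. The full rule was no longer met at 100 ppb when either array of the 0 or the 100 ppb pool was left out, with log2 differences of -1.45 to -1.20 over all 8 omissions and adjusted p up to 0.115. It was also not met in the deposited scaling, without quantile normalisation (-1.40, adjusted p = 1), or with a pseudocount of 64 (-0.72, adjusted p = 0.0208), which falls under the 2-fold minimum. Among the exposed pools, txnb fell by 1.44 ± 0.23 at 100 ppb relative to 10 ppb (adjusted p = 0.0078), a comparison in which 1.59% of probe sets passed the full rule. Without replicate 1 of the 10 ppb pool this difference was -1.15, and without replicate 2 it was -1.76, both past the full rule. The rule was not met without replicate 1 of the 100 ppb pool (adjusted p = 0.11) or without replicate 2 (adjusted p = 0.0646), in the deposited scaling (-1.18, adjusted p = 0.999), with a pseudocount of 64 (-0.81) or in a fit of those 2 pools alone (adjusted p = 0.0594). txnb differed by -0.75 ± 0.23 at 40 ppb relative to 10 ppb (adjusted p = 0.232) and by -0.69 ± 0.23 at 100 ppb relative to 40 ppb (adjusted p = 0.269), so neighbouring exposed doses were not separated by the test. Without replicate 2 of the 10 ppb pool, the 40 minus 10 ppb difference was -1.05 and passed the full rule (adjusted p = 0.0367), and without replicate 1 it was -0.46 and did not. In those comparisons 0.978% and 0.43% of probe sets passed the full rule.

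prdx1 (Entrez gene 541344), a thiol peroxidase of the cytosol that thioredoxin keeps active, was read by 3 probe sets. Its brightest probe set, Dr.10624.2.S1_at, was at 9.50 and 9.62 in the 0 ppb pool, 10.04 and 9.90 in the 10 ppb pool, 9.99 and 10.17 in the 40 ppb pool, and 10.31 and 10.51 in the 100 ppb pool. All 6 exposed arrays lay above both control arrays, and both 100 ppb arrays lay above the rest. Non-overlapping arrays were common, since 58.4% of all probe sets had them at 100 ppb, 47.8% at 40 ppb and 41.5% at 10 ppb, so the ordering alone sets no gene apart. Relative to 0 ppb the probe set was higher by 0.85 ± 0.11 at 100 ppb (95% interval 0.60 to 1.11, limma adjusted p = 0.00275), a 1.81-fold difference that passed the adjusted p but not the 2-fold minimum. The difference was 0.52 ± 0.11 at 40 ppb (adjusted p = 0.0898) and 0.41 ± 0.11 at 10 ppb (adjusted p = 0.104). Without replicate 1 of the 10 ppb pool the 10 ppb difference was 0.34 (adjusted p = 0.152), and without replicate 2 it was 0.48 (adjusted p = 0.0516). The 40 ppb difference remained 0.52 in both of these fits, and it ran from 0.43 to 0.62 over all 8 omissions of an array.

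The other prdx1 probe sets gave smaller differences of the same sign at 100 ppb. Dr.10624.2.S1_a_at, which is built on the same transcript cluster, was at 9.99 and 10.19 at 100 ppb, against 9.41 and 9.43 at 0 ppb. This is a difference of 0.67 ± 0.11 (adjusted p = 0.0092), past the adjusted p alone. Dr.10624.1.S1_at was at 9.35 and 9.65 at 100 ppb, against 8.98 and 8.99 at 0 ppb. Its difference of 0.52 ± 0.16 did not pass either rule (adjusted p = 0.084). At 10 and 40 ppb Dr.10624.2.S1_a_at differed by 0.42 and 0.46, neither past the test (adjusted p = 0.0987 and 0.131). Dr.10624.1.S1_at differed there by only 0.06 and 0.29 (adjusted p = 0.899 and 0.524). Its replicate 2 at 10 ppb, at 8.85, lay below both control arrays, so the 3 probe sets did not share a rise at 10 ppb. Across the 8 arrays the 3 probe sets correlated at 0.959, 0.863 and 0.8 in pairs, as a description only, since they share pools and transcript. The mean over the 3 probe sets was 0.68 higher at 100 ppb (adjusted p = 0.0119). Within run days the brightest probe set was higher at 100 ppb by 0.81 on the second day and by 0.90 on the third. Leaving out 1 array at a time, its 100 ppb difference ran from 0.74 to 0.95, and the adjusted p was above 0.05 once, at 0.0528, without replicate 2 of the 100 ppb pool. In the deposited scaling it was 0.89 and not past the test (adjusted p = 1).

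sod1, probe set Dr.20938.1.S1_at (Entrez gene 30553), encodes the copper and zinc superoxide dismutase of the cytosol. It was at 10.57 and 10.52 in the 0 ppb pool, 10.24 on both 10 ppb arrays, 10.41 and 10.45 in the 40 ppb pool, and 10.16 and 10.13 in the 100 ppb pool. The arrays of each exposed pool lay below both control arrays, with the 40 ppb pool nearest to them. Relative to 0 ppb, sod1 fell by 0.40 ± 0.09 at 100 ppb (95% interval -0.59 to -0.21, limma adjusted p = 0.0271), which is 1.32-fold lower and under the 2-fold minimum. The difference was -0.31 ± 0.09 at 10 ppb (adjusted p = 0.113) and -0.12 ± 0.09 at 40 ppb (adjusted p = 0.662). The 10 ppb difference was -0.30 without replicate 1 of that pool and -0.31 without replicate 2. The order of the pools was not that of the doses. Within run days the 100 ppb difference was -0.41 on the second day and -0.40 on the third. The pass of the adjusted p at 100 ppb was lost when the arrays were centred on their medians in place of quantile normalisation (-0.23, adjusted p = 0.566), in the deposited scaling (-0.32, adjusted p = 1), and in 6 of 8 fits that left out 1 array.

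cat, probe set Dr.1079.1.S1_at (Entrez gene 30068), encodes the peroxisomal catalase. It was at 8.86 and 8.89 in the 0 ppb pool, 8.73 and 9.14 in the 10 ppb pool, 8.78 and 8.93 in the 40 ppb pool, and 8.81 and 8.77 in the 100 ppb pool. The control arrays lay inside the range of the 10 and the 40 ppb arrays, and just above those at 100 ppb. The difference from 0 ppb was 0.06 ± 0.14 at 10 ppb (95% interval -0.25 to 0.37, adjusted p = 0.884), -0.02 ± 0.14 at 40 ppb (-0.33 to 0.29, adjusted p = 0.979) and -0.09 ± 0.14 at 100 ppb (-0.40 to 0.22, adjusted p = 0.754). The intervals span differences of up to 0.40 in size and do not reach 2-fold. They measure the spread between arrays of these pools and not between fish, so they set no bound on the effect of dose. Its 10 ppb arrays were 0.41 apart, and without replicate 1 of that pool the 10 ppb difference was 0.27, and without replicate 2 it was -0.15.

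**Figure D2:**
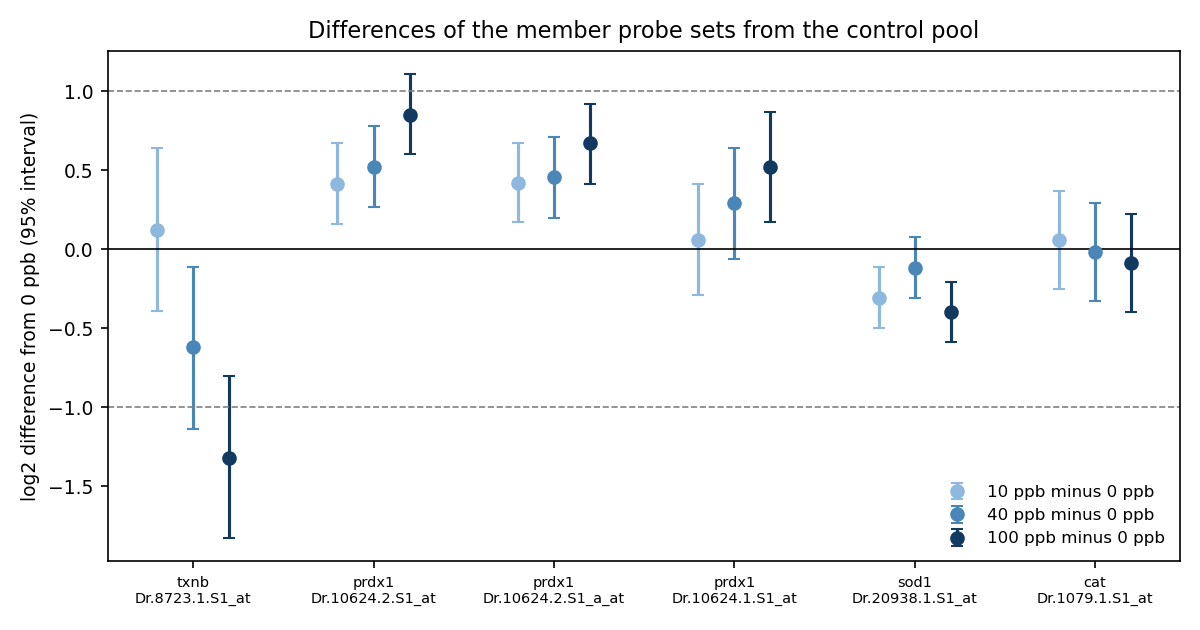
Log2 difference from the 0 ppb pool (vertical axis) of the 6 probe sets at 10, 40 and 100 ppb; points are differences of pool means, bars their 95% intervals from limma over 2 arrays a pool, and dashed lines the 2-fold minimum. The txnb point at 100 ppb lies past the lower dashed line at -1.32, the 3 prdx1 probe sets lie between 0.52 and 0.85 at that dose, and all cat intervals span 0.

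Fits on the 4 pool means, in which the pool and not the array is the unit, separated none of the 4 genes. In the limma fit of the 3 exposed pools against the single control pool, 0% of the 9301 probe sets passed an adjusted p of 0.05, while 7.54% had an unadjusted p under 0.05. Of the 4 genes, prdx1 was among these, and its limma adjusted p was 0.648. The exposed minus control difference was -0.61 ± 0.52 for txnb, 0.60 ± 0.18 for prdx1, -0.27 ± 0.13 for sod1 and -0.01 ± 0.11 for cat. In the fit of a straight line over the rank of the 4 doses, 0.0215% of probe sets passed the adjusted p and 12.2% an unadjusted p under 0.05. Per step of dose, txnb changed by -0.47 ± 0.10 (limma adjusted p = 0.285) and prdx1 by 0.27 ± 0.04 (limma adjusted p = 0.2). sod1 changed by -0.10 ± 0.05 per step (adjusted p = 0.468) and cat by -0.03 ± 0.04 (adjusted p = 0.743). These fits have 2 residual degrees of freedom.

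The 4 genes were set beside the wider antioxidant network, listed by function as 109 genes, of which 50 had a probe set with a single symbol and 47 were tested, each by its brightest tested probe set. At 100 ppb 2 of 47 passed the full rule, txnb and the selenoprotein P gene selenop, both lower, beside 1.25% of all tested probe sets. By adjusted p alone 9 of 47 passed, beside 5.17% of all tested probe sets. Higher were prdx1, txndc9 and msrb1b, and lower were txnb, txnipa, sod1, sod2, gpx8 and selenop. The median difference of the 47 genes at 100 ppb was -0.09, against 0.00 over all tested probe sets, and 38 of the 47 differed by less than 0.5. Leaving out 1 array at a time gave 0 to 2 genes by the full rule and 0 to 12 by adjusted p alone, and the deposited scaling gave 0 by both. At 10 ppb 1 of 47 passed the full rule, selenop2, higher, beside 1.11% of all tested probe sets. selenop2 passed the intensity filter only through its 10 ppb arrays, so its pass there is not independent of the filter. The median of the 47 genes at 10 ppb was -0.06, against -0.02 over all probe sets. At 40 ppb 0 of 47 passed the full rule of the limma fit, beside 0.344% of all tested probe sets, and 7 had an unadjusted p under 0.05. By adjusted p alone 1 of 47 passed, beside 0.613% of all tested probe sets. It was the glutathione transferase gene gsto2, which was lower (-0.60, adjusted p = 0.0292). The median of the 47 genes at 40 ppb was -0.07, against 0.01 over all probe sets.

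**Figure D3:**
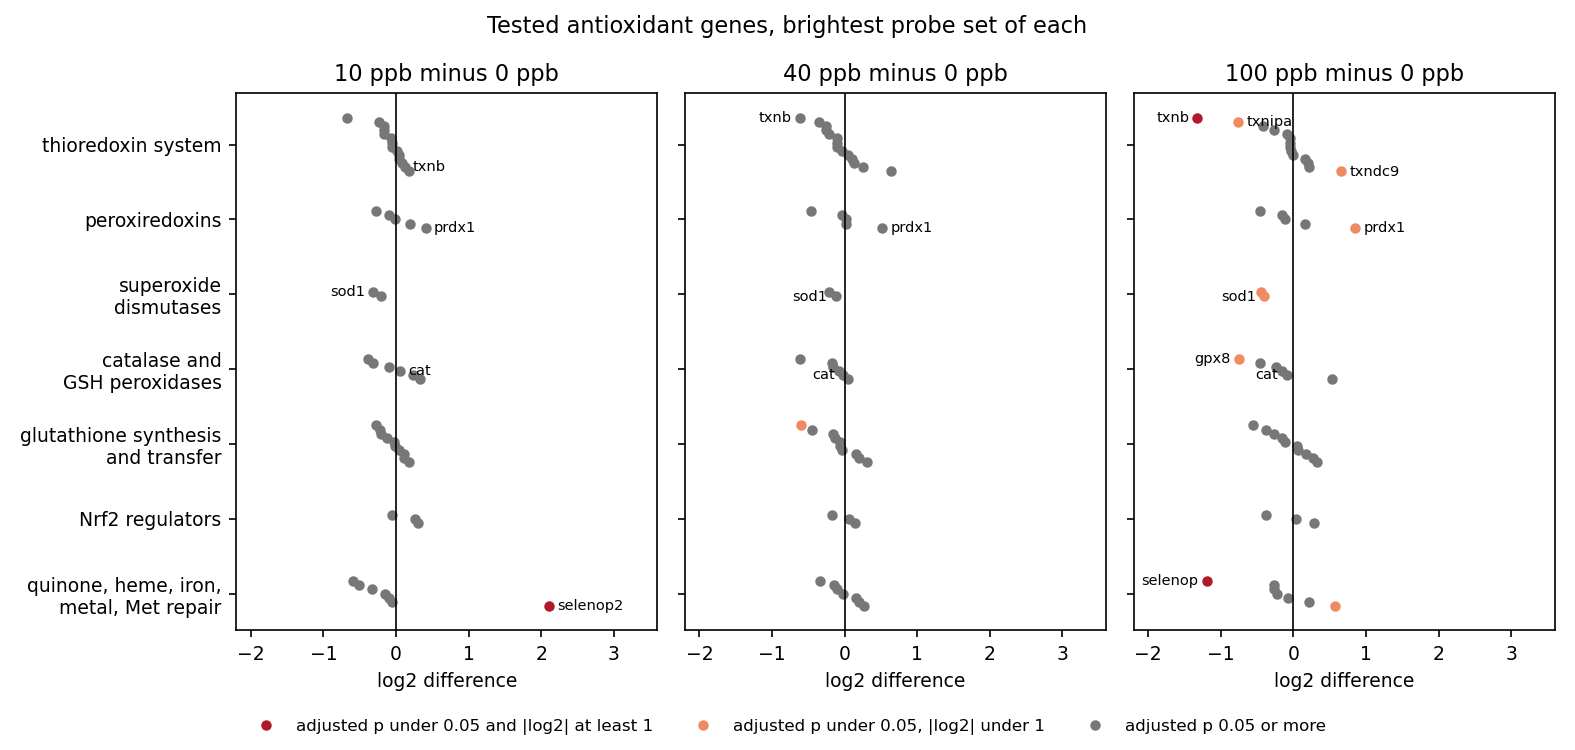
Log2 difference from the 0 ppb pool (horizontal axis) of the 47 tested antioxidant genes, by function (vertical axis) and dose (panels); each point is a gene, coloured by the rule it passed. At 100 ppb txnb (-1.32) and selenop (-1.19) lie farthest to the left, and 38 of the 47 genes lie within 0.5 of no difference.

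Of 14 tested genes of the thioredoxin system, 1 passed the full rule at 100 ppb, txnb, and by adjusted p alone 1 was higher and 2 were lower. txna, the other cytosolic thioredoxin gene on the array, was at 10.86 and 10.85 at 100 ppb, against 10.95 on both 0 ppb arrays. Its difference of -0.09 ± 0.08 had a 95% interval of -0.27 to 0.10. txnipa, whose mammalian counterpart binds and inhibits thioredoxin, was at 7.36 and 7.45 at 100 ppb, against 8.23 and 8.11 at 0 ppb (-0.76 ± 0.17, adjusted p = 0.0292). At 10 ppb it was at 7.25 and 7.73, a difference of -0.68 not past the test, and at 40 ppb the difference was -0.36. txndc9, which in mammals works with the chaperonin that folds actin and tubulin, was at 7.67 and 7.58 at 100 ppb, against 7.03 and 6.90 at 0 ppb (0.66 ± 0.13, adjusted p = 0.0206). At 40 ppb txndc9 differed by 0.64, close to that value but not past the test (adjusted p = 0.0724).

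Of 5 tested peroxiredoxin genes, prdx1 alone passed the adjusted p at 100 ppb, and 0 of 5 passed the full rule of the limma fit, with 2 at an unadjusted p under 0.05. prdx5, a mitochondrial and peroxisomal member, differed by -0.46 (adjusted p = 0.0804), prdx4 of the endoplasmic reticulum by 0.16 and the cytosolic prdx2 by -0.11. Both tested superoxide dismutase genes were lower at 100 ppb by adjusted p alone, and both were under the 2-fold minimum. The mitochondrial sod2 was at 9.22 and 9.10 at 100 ppb, against 9.68 and 9.51 at 0 ppb (-0.44 ± 0.11, adjusted p = 0.0451). Its differences at 10 and 40 ppb, -0.20 and -0.21, were smaller and not past the test.

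Of 6 tested genes for catalase and glutathione peroxidases, gpx8 alone passed the adjusted p at 100 ppb. gpx8, a peroxidase of the endoplasmic reticulum, was at 6.91 and 6.88 at 100 ppb, against 7.50 and 7.79 at 0 ppb (-0.75 ± 0.17, adjusted p = 0.0303). gpx1b differed by 0.53 and gpx4a by -0.46, neither past the test, and gpx4b by -0.15. Of 10 tested genes for glutathione synthesis and transfer 0 passed either rule of the limma fit at 100 ppb, and 4 had an unadjusted p under 0.05. Glutathione reductase, gsr, differed by -0.56 (adjusted p = 0.101), gstt1a by -0.38, mgst3a by 0.33 and gstp1.2 by 0.27. Of the 3 tested Nrf2 regulators 0 passed either rule, and 1 had an unadjusted p under 0.05. The gene for the transcription factor itself, nfe2l2a, differed by 0.28, its repressor keap1a by 0.03 and the small Maf gene maff by -0.37 (adjusted p = 0.174).

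Among 7 tested genes of quinone, heme, iron, metal and methionine repair, selenop fell at 100 ppb. Its protein carries selenium to other tissues and in mammals comes largely from liver. It was at 7.77 and 7.74 at 100 ppb, against 8.93 and 8.95 at 0 ppb (-1.19 ± 0.20, adjusted p = 0.0097). The full rule was not met in the deposited scaling (-1.25, adjusted p = 1) or without any 1 of the 4 arrays compared, with adjusted p up to 0.11. The related gene selenop2 was at 7.87 and 5.83 in the 10 ppb pool, against 4.85 and 4.62 at 0 ppb (2.11 ± 0.48, adjusted p = 0.0476). The 10 ppb arrays were on the same side of the control arrays but far from each other, as were the liver markers. Without replicate 2 of that pool the selenop2 difference was 3.18, without replicate 1 it lay under the intensity filter, and by the third day's arrays alone it was 1.21. The full rule was met in 1 of the 7 omissions of an array in which selenop2 was tested, with adjusted p up to 0.28 in the others. Only 1 of the 2 control arrays was above the tag controls for selenop2. msrb1b, which repairs oxidised methionine, was at 7.65 and 7.73 at 100 ppb, against 7.16 and 7.08 at 0 ppb (0.57 ± 0.13, adjusted p = 0.0332). The biliverdin reductase gene blvrb and the ferritin gene fth1a each differed by -0.27 at 100 ppb and did not pass.

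The probe sets of other genes most like each member over the 8 arrays were named by Pearson's r, as a description without a test, since arrays of a pool share RNA. For txnb they were cpm (r = 0.972), maff (0.970), hsd11b1la (0.956), tecpr2 (0.956) and pfkma (0.948). For prdx1 they were org (0.978), peli1b (0.973), ap3s2 (0.968), snapc4 (0.967) and cdca3 (0.966). For sod1 they were si:ch73-380l3.2 (0.969), eif3ja (0.965), pdha1a (0.964), selenow1 (0.963) and anxa11a (0.961). For cat they were zyg11 (0.962), ncapg (0.960), zgc:174263 (0.957), hp1bp3 (0.955) and lrpap1 (0.946). Of these, maff was also in the antioxidant lists, and it differed from 0 ppb by -0.06 at 10 ppb, -0.18 at 40 ppb and -0.37 at 100 ppb.

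Marker genes of the cells that an ovary sample can hold were read on the same arrays. All 9 oocyte markers were above the tag controls on every array, and their summed signal was 22887 and 23033 at 100 ppb, against 20428 and 21239 at 0 ppb. None of these 9 passed the full rule of the limma fit at 100 ppb, 1 was higher by adjusted p alone, and 4 had an unadjusted p under 0.05. Of 8 follicle cell markers, 3 were above the tag controls on every array and amh was on none. Follicle markers summed to 635 and 655 at 100 ppb, against 811 and 665 at 0 ppb. The 3 tested follicle markers did not share a direction at 100 ppb. gsdf was higher by adjusted p alone (0.76, adjusted p = 0.0373), cyp19a1a differed by 0.51 and cyp11a1.1, the brightest, by -0.37, the last 2 not past the test, and their median difference was 0.51.

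By the full rule 0.946% of all tested probe sets were lower at 100 ppb and 0.301% at 40 ppb. By adjusted p alone 3.04% were lower and 2.13% higher at 100 ppb. These shares stand beside the counts of markers given here. Of 10 epithelium markers, 7 were lower at 100 ppb by the full rule and 6 at 40 ppb. Those at 100 ppb were the keratin genes krt4, krt8, krt18a.1, krt18b and krt94 and the annexin genes anxa1a and anxa2a. The other 3 had positive differences at 100 ppb, cdh1 of 0.65 (adjusted p = 0.0191, past the adjusted p alone), krt5 of 0.68 and epcam of 0.23, these last 2 not past the test. All 10 summed to 6793 and 7086 at 100 ppb, against 8056 and 9952 at 0 ppb. epcam, by far the brightest at 12.34 at 100 ppb and 12.11 at 0 ppb, weighed most in this sum. Of 8 tested leukocyte markers 2 were lower at 100 ppb by the full rule, marco and cpa5. Both were also lower at 40 ppb by the full rule. cd74b was lower by adjusted p alone at 100 ppb (-0.94, adjusted p = 0.00373) and at 10 ppb (-0.74, adjusted p = 0.0164). lyz was higher at 100 ppb by adjusted p alone (0.68, adjusted p = 0.0311) and at 10 ppb by the full rule (1.07, adjusted p = 0.00505). Of the 8 tested leukocyte markers 7 had negative differences at 100 ppb. The 10 on the array summed to 385 and 436 at 100 ppb, against 855 and 788 at 0 ppb. Both tested red blood cell markers, hbaa1 and ca2, were lower at 100 ppb by the full rule. At 10 and 40 ppb they did not share a direction, with ca2 at -0.89 and -1.06 and hbaa1 at 0.12 and 0.17. The 7 on the array, of which hbaa1 was the brightest, summed to 186 and 193 at 100 ppb, against 464 and 503 at 0 ppb. Of 5 tested markers of smooth muscle and stroma 2 were lower at 100 ppb by the full rule, acta2 and tagln. col1a2 was lower by adjusted p alone (-0.71, adjusted p = 0.036), and all 5 had negative differences. The 7 on the array summed to 357 and 349 at 100 ppb, against 666 and 701 at 0 ppb, and desma was above the tag controls on no array. Of 18 liver markers 12 were higher at 10 ppb by the full rule, beside 0.645% of all tested probe sets. Some, such as hpxb and apobb.1, had means under the filter level of 5.11 in each other pool. They passed the filter only through the 10 ppb arrays, so their passes are not independent of it. At 100 ppb the 18 liver markers summed to 1180 and 1192, against 970 and 1039 at 0 ppb.

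The ratio of the 3' to the 5' probe set of gapdh, a measure of RNA length, was 0.949 and 1.06 on the 100 ppb arrays, against 1.38 and 1.34 on the 0 ppb arrays. The part of these cell markers and of RNA length in the differences of txnb, prdx1, sod1 and selenop at 100 ppb was not tested.

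**Figure D4:**
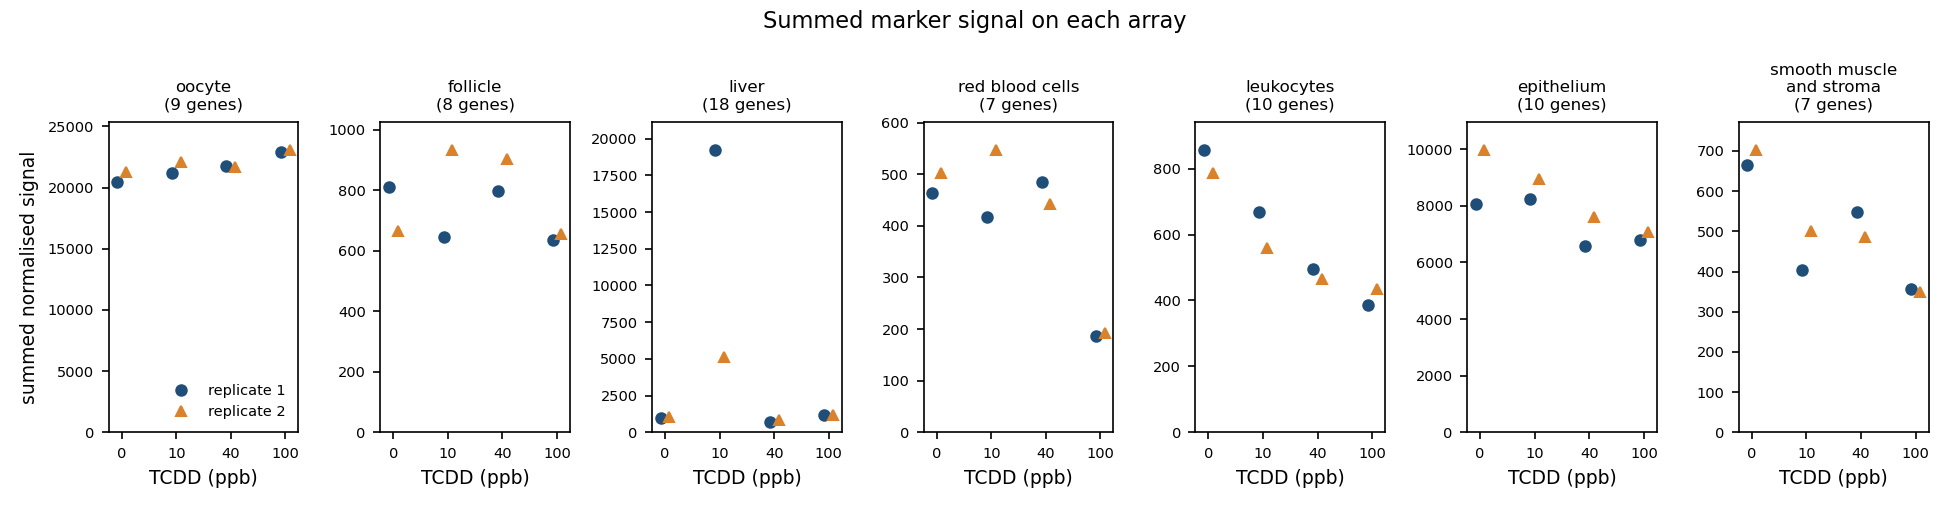
Summed normalised signal (vertical axes, each from 0) of the markers of each cell type on the 8 arrays, with dietary TCDD in ppb on the horizontal axis; circles are replicate 1 and triangles replicate 2. Sums of red blood cell, leukocyte and smooth muscle markers are lowest at 100 ppb, and the liver sum is highest on replicate 1 at 10 ppb, at 19189.

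**Figure D5:**
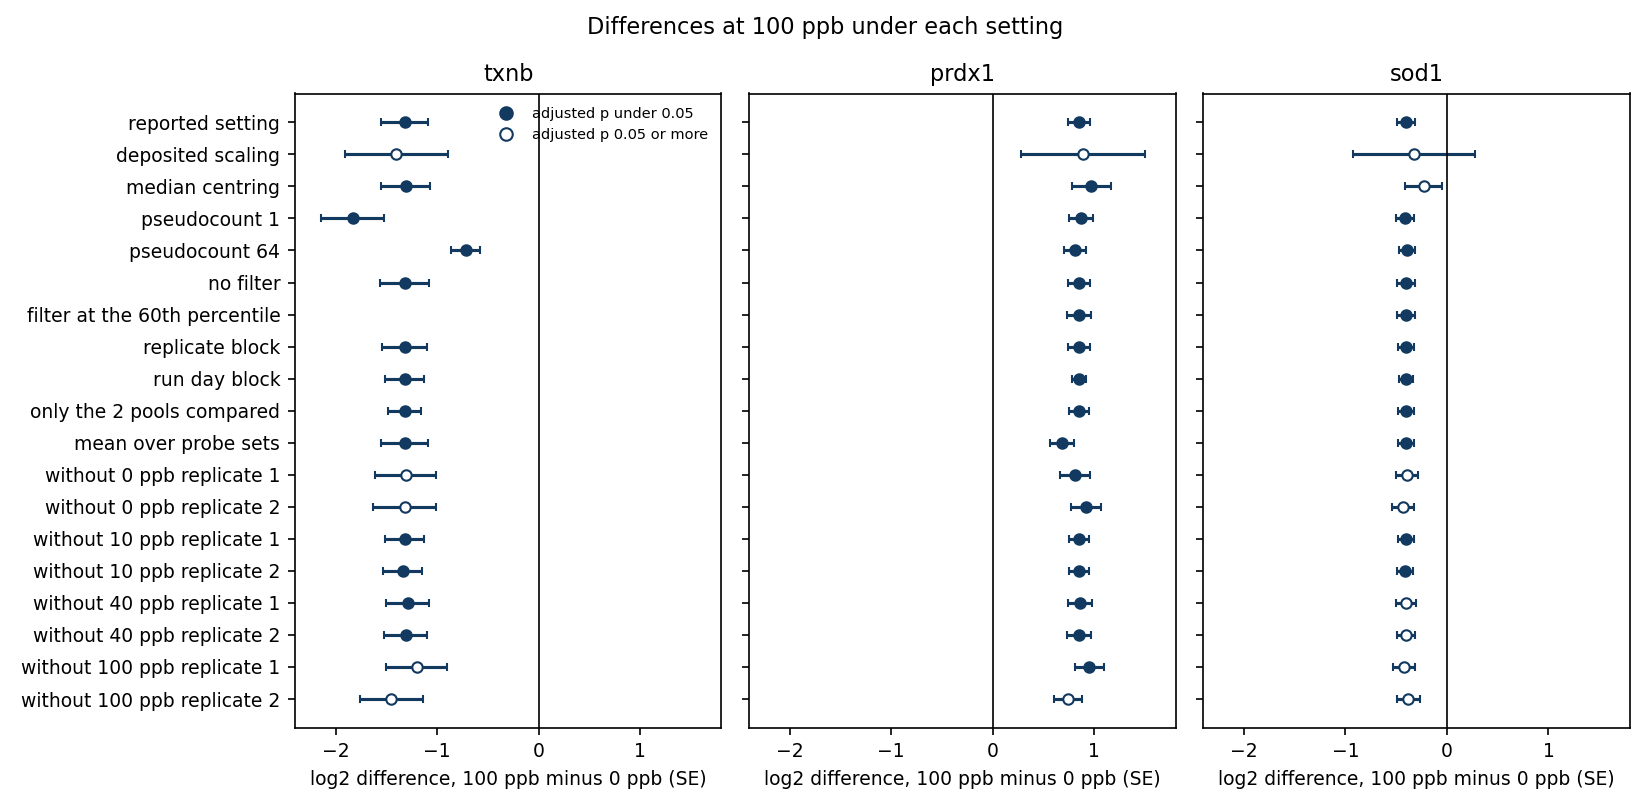
Log2 difference at 100 ppb minus 0 ppb (horizontal axes, bars are SE) of txnb, prdx1 and sod1 under each setting (vertical axis); filled points have an adjusted p under 0.05 and open points 0.05 or more. The sign is the same in all settings run, txnb runs from -1.83 to -0.72, and txnb has no point at the higher intensity filter, which it did not pass.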

How the data were processed

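Whole-ovary RNA pools were measured on Affymetrix zebrafish arrays, and the authors deposited a linear intensity for every probe set, the MAS5 signal per the submitters' processing notes. In the sources used here, its version and scaling target were not given. Instrument files, also deposited by the authors, hold settings of other kinds and served here to find the run day of each array. Here 115 control probe sets were left out and log2(signal + 16) was quantile normalised. The other probe sets with a mean level over 5.11, the 40th percentile, were tested with limma 3.58.1 in R 4.3.3. The main fit took the 8 arrays as observations, with a mean for each of the 4 pools and a trended prior. The separate pool fits took the 4 pool means as observations. The fits were also run on simulated data with no spread between pools. The added differences were larger than those of txnb, prdx1 and sod1, and in probe sets brighter than txnb. Those runs therefore do not bear on the passes reported here. Values on this log2 scale understate changes of dim probe sets, and they are relative levels within a probe set, with no interval for counting error; the number of arrays limits the precision. Genes were named through the platform annotation, which gave 1 symbol to 10795 probe sets, several to 135 and none to 4572. Genes named in the text are the 4 members, every listed gene that passed the full rule, and in each list the 3 with the largest difference at 100 ppb and the brightest at 0 ppb. gsto2 was named after its value was seen. The members, the gene lists and the markers were chosen with earlier results of these data known. Alternatives changed the scaling, pseudocount, filter, blocks, pools, minimum difference and arrays.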

Additional observations from a re-analysis of the deposited data

How the results depend on the processing

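The difference of txnb at 100 ppb kept its sign in every setting, but missed the full rule in the deposited scaling (-1.40), with a pseudocount of 64 (-0.72) and without any 1 of the 4 arrays compared (range of all omissions -1.45 to -1.20), and it was not tested at the 60th percentile filter. At 10 ppb txnb was negative in the deposited scaling (-0.22), with the run day block (-0.12) and in part of the omissions (-0.17 to 0.42). The run day block leaves replicate 2 alone to give any 10 ppb value. With the replicate block the txnb difference at 100 ppb was -1.32 (limma adjusted p = 0.0108) and 2 antioxidant genes passed. In the 0, 40 and 100 ppb pools replicate 1 was run on the second day and replicate 2 on the third. The replicate block is thus close to the run day block, and neither could change the size of that difference. The replicate numbers pair only arrays, whose deviations correlated at 0.0126 to 0.298 between pools. Antioxidant genes passing the full rule at 10 ppb, 1 as reported, were 0 with a pseudocount of 64, no filter, the 60th percentile filter or only the 2 pools compared, and 0 to 1 over omissions. At 40 ppb the count was 1 with no minimum difference. At 100 ppb, 2 as reported, it was 0 in the deposited scaling, 1 with a pseudocount of 64 or the 60th percentile filter, 9 with no minimum difference and 0 to 2 over omissions. By adjusted p alone, 9 as reported, it was 0 in the deposited scaling, 5 with median centring, 18 with the run day block and 0 to 12 over omissions, with 4 without either 40 ppb array. For 40 minus 10 ppb the count by the full rule was 0 in the main fit, beside 0.978% of all tested probe sets. It was 1 in the deposited scaling, with median centring or with no minimum difference. For 100 minus 10 ppb, 2 as reported, it was 1 in the deposited scaling or with no filter, 0 with a pseudocount of 64, the 60th percentile filter or only the 2 pools, 4 with no minimum difference, and 0 to 3 over omissions. Differences that changed sign and passed no test were, in the deposited scaling, cat at 10 ppb (-0.26), 40 ppb (0.15), 40 minus 10 ppb (0.41) and 100 minus 10 ppb (0.14) and sod1 at 40 ppb (0.13) and 100 minus 10 ppb (0.21). With median centring they were sod1 at 40 ppb (0.06), cat at 40 ppb (0.08) and 40 minus 10 ppb (0.04) and selenop2 at 100 ppb (0.03), and with the run day block selenop at 40 minus 10 ppb (-0.17). Over omissions cat ran from -0.15 to 0.27 at 10 ppb, -0.09 to 0.06 at 40 ppb, -0.28 to 0.13 at 40 minus 10 ppb and -0.35 to 0.06 at 100 minus 10 ppb, selenop from -0.15 to 0.64 at 40 minus 10 ppb and selenop2 from -0.20 to 0.03 at 100 ppb. The deposited scaling moved the median of all probe sets by -0.34 at 10 ppb, 0.14 at 40 ppb and -0.07 at 100 ppb. The causes were not tested.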
